A study of Mus musculus with 8 samples.

Results

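The DNA damage response kinases and mediators described here are 10 genes: *Atm*, *Atr*, *Chek1*, *Chek2*, *Hus1*, *Topbp1*, *H2afx*, *Mdc1*, *Rnf8* and *Brca1*. They were taken by gene symbol from the deposited table of 54532 genes, and all 10 were found and passed the filter for testing, which 12141 genes passed. Bulk RNA-seq libraries, 1 for each mouse, came from the testes of 4 control (*Sync-Spdya* fl/fl) and 4 knockout (*Sync-Spdya* cKO) mice at RA11.5, that is 11.5 days after retinoic acid (RA) was given. The control mice carry floxed *Spdya* without Cre. The cKO mice (*Spdya* fl/fl;*Ddx4-Cre*ERT2) carry the same floxed alleles together with a tamoxifen-dependent Cre made from the *Ddx4* gene, a germ cell gene, which removes exon 2 of *Spdya* in germ cells and not in the somatic cells of the testis. All 8 mice were juveniles with spermatogenesis synchronized by an inhibitor of RA synthesis followed by RA, and all received tamoxifen at RA7.5 and RA8.5 by the labels. The study places these testes at mid-late pachynema and asked whether transcription from the sex chromosomes stays silent when X and Y remain synapsed after *Spdya* deletion.

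In cells that divide, ATM responds to double-strand breaks, and ATR responds to single-stranded DNA coated by RPA. In pachytene spermatocytes ATR also serves another purpose. HORMAD proteins and BRCA1 on the unsynapsed axes of X and Y bring ATR there, TOPBP1 activates it, ATR phosphorylates histone H2AX, and MDC1 binds this γH2AX and carries ATR and TOPBP1 from the axes into the chromatin loops. These steps are the machinery of meiotic sex chromosome inactivation (MSCI), and they form the sex body. RNF8 builds ubiquitin chains on the same chromatin.

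None of the 10 mRNAs was called different between the groups. The difference with the smallest p was that of *Atr*, at 25.3 ± 2.74 FPKM in the control and 20.02 ± 2.89 FPKM in the cKO libraries (SD, n = 4 each), and it did not pass correction for multiple testing. FPKM counts the sequenced fragments of a gene relative to its length and to the size of the library. The most abundant members were those that mark and read the chromatin of the sex body, *H2afx* and *Mdc1*, and the least abundant were *Hus1* and *Chek2*. *H2afx* was also the member that varied most between mice of the same group.

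The fragments counted on genes ranged from 13978342 to 17867570 in the control and from 15494873 to 19583091 in the cKO libraries. Each member was covered by 185 to 13935 fragments per library. Control replicate 1 stood apart: 0.464% of its fragments were mitochondrial, against 2.20% to 3.74% in the other 7 libraries, and its correlation with the others was the lowest (r = 0.969 to 0.980 across genes). *Spdya* itself, counted over the whole gene, differed by 0.15 on the log2 scale (standard error 0.16, limma adjusted p = 0.787), so its level gave no check of the genotype labels. Spermatocyte markers (*Sycp1*, *Sycp2*, *Sycp3*, *Hspa2*, *Piwil1*, *Mybl1*, *Ovol1*) were present in every library, while 5 of 6 spermatid markers stayed below 1 FPKM in every library.

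*Atm* (ENSMUSG00000034218, 53439149 to 53536740), *Atr* (ENSMUSG00000032409, 95857597 to 95951781), *Topbp1* (ENSMUSG00000032555, 103305215 to 103350428), *H2afx* (ENSMUSG00000049932, 44334694 to 44336077) and *Chek1* (ENSMUSG00000032113, 36708482 to 36727065) all lie on chromosome 9 of GRCm38. *Hus1* (ENSMUSG00000020413, 8993137 to 9011191) and *Brca1* (ENSMUSG00000017146, 101488764 to 101551955) lie on chromosome 11. *Mdc1* (ENSMUSG00000061607, 35841515 to 35859670) and *Rnf8* (ENSMUSG00000090083, 29614790 to 29641664) lie on chromosome 17, and *Chek2* (ENSMUSG00000029521, 110839979 to 110874145) lies on chromosome 5. None is on X or Y, the chromosomes that MSCI silences.

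RefSeq promoters on GRCm38.p6, from 250 bases before to 50 bases after the start of transcription, were matched by symbol for 9 of the 10 members, all but *H2afx*. The promoters of *Mdc1*, *Topbp1* and *Atr* are shown because these 3 are the most abundant members with an entry and are those whose products form the ATR circuit of the sex body. All 3 are on the plus strand, at chr17:35841248-35841547, chr9:103305077-103305376 and chr9:95857347-95857646. Capitals mark a CCAAT box in *Mdc1* and, in *Topbp1*, an E2F motif on the opposite strand.
Mdc1: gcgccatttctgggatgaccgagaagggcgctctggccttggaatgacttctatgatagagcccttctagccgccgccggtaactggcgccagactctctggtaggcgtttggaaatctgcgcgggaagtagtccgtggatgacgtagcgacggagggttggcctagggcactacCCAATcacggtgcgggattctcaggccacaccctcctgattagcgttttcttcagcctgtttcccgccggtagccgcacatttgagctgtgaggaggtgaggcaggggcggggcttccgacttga
Topbp1: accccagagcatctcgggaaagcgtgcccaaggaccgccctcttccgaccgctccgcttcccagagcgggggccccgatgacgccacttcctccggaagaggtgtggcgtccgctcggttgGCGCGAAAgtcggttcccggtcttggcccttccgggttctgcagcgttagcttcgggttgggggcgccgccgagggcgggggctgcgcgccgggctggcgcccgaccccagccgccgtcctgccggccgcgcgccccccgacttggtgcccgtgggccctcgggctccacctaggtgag
Atr: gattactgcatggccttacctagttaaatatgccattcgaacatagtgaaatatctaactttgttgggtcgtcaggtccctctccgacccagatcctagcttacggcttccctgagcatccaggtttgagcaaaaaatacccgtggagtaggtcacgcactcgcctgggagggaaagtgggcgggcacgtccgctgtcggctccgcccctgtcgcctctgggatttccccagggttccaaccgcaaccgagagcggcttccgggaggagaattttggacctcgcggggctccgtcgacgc

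A CCAAT box (CCAAT, either strand) was found in 5 of the 9 promoters, those of *Atm*, *Brca1*, *Chek2*, *Mdc1* and *Rnf8*, and in 37.4% of all 32851 promoters of the same length. The E2F motif, searched as TTTGGCGC or TTTCGCGC on either strand, was found in *Topbp1* alone of the 9 and in 0.813% of all promoters. Other forms of the E2F site were not searched. The cAMP response element TGACGTCA (1.79% of all promoters) was found in none of the 9 windows. The G+C content was 57.3% in *Atr*, 59.7% in *Mdc1* and 73.7% in *Topbp1*, against a median of 52.7% over all promoters. These are matches of letters within the windows and show no binding.

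The levels of the 10 genes in the control testes fell into tiers. *H2afx* came first with a mean of 152 FPKM, then *Mdc1* with 92.9, *Topbp1* with 27.7, *Atr* with 25.3 and *Atm* with 11.5 FPKM. *Brca1* (7.78 FPKM), *Chek1* (7.66) and *Rnf8* (7.45) formed the next tier, and *Hus1* (4.72) and *Chek2* (4.53) the last. The control libraries of neighbouring genes overlapped between *H2afx* and *Mdc1*, between *Topbp1* and *Atr*, among *Brca1*, *Chek1* and *Rnf8*, and between *Hus1* and *Chek2*, so the order within these sets is not resolved. They did not overlap between *Mdc1* and *Topbp1*, *Atr* and *Atm*, or *Rnf8* and *Hus1*. *Atm*, with a lowest control value of 10.3 FPKM, did not overlap *Brca1* but was reached by the highest control values of *Chek1* (10.7) and *Rnf8* (10.3), both in control replicate 1.

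**Figure D1:**
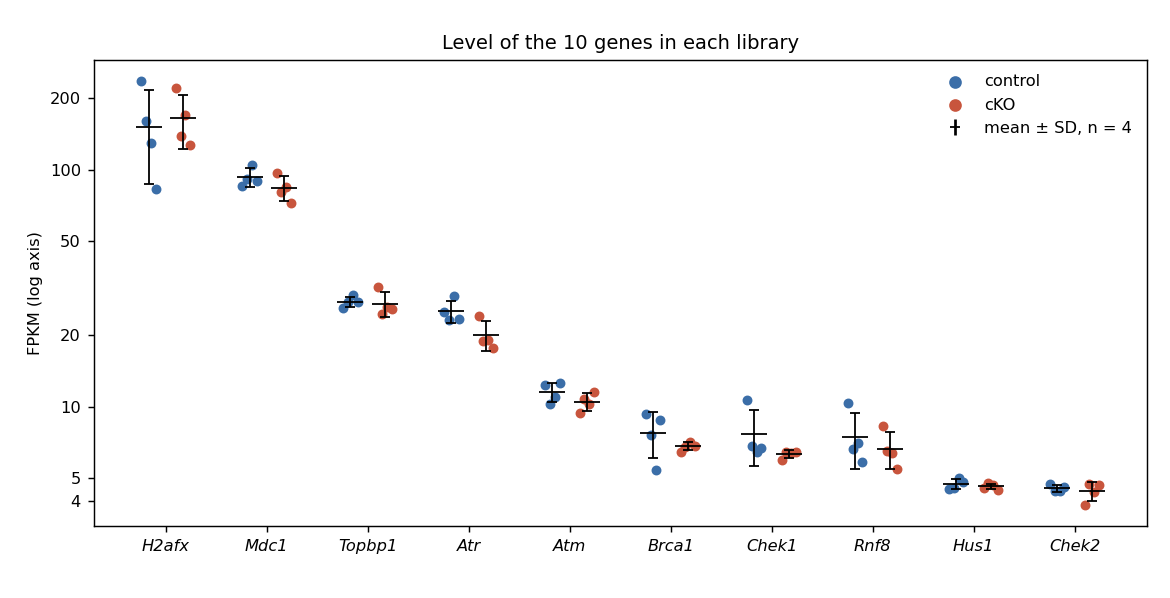
FPKM on a log axis for each of the 10 genes, ordered by mean control level, with 1 point per library (blue, control; red, cKO) and black bars for mean ± SD, n = 4. The 2 groups overlap in every gene; 3 of the 4 cKO points of *Atr* lie below its lowest control point, and *H2afx* spreads from 82.7 to 237 FPKM.

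This order rests on the gene lengths in the table, which for all members but *Rnf8* equal the joined exons of every annotated transcript. For *Atr* that length is 23629 bases, 2.92 times the 8102 bases of its principal transcript in GENCODE vM21, and for *Topbp1* it is 11226 against 5224 bases. If all fragments are assigned to the principal transcript, the control means become 73.8 FPKM for *Atr* and 59.6 FPKM for *Topbp1*, and the pair changes places below *Mdc1* at 94.0 FPKM. On that scale the control libraries of *Brca1* (highest 12.1 FPKM) also overlap those of *Atm* (lowest 10.9). The same lengths apply to both groups, so fold changes are not affected. *Rnf8* was left out of this rescaling because its end in the table differs from its end in that annotation. Its table length is 3178 bases, against 5404 bases for its principal transcript and 11703 for its joined exons there. A longer length would lower its FPKM, so its tier and its separation from *Hus1* depend on the table length.

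The comparison of the 2 groups asks whether the mRNAs of the 10 genes differ in testes whose spermatocytes have lost SpdyA. The groups were compared in limma on log2(FPKM + 0.1) over all 12141 genes, and a call required both a change of more than 1 on the log2 scale and a Benjamini-Hochberg adjusted p under 0.05. Of all genes tested 0.0165% were called, 2 genes in number, and none of the 10 was among them. The study used DESeq2, a test on counts, with the same filter and thresholds. It called more genes than this fit, with none on the sex chromosomes. That test was not repeated on the FPKM values, so the calls given here are those of limma. At an unadjusted p below 0.05, 1 of the 10 passed (*Atr*, lower in the cKO libraries), against 10.9% of all genes, of which 5% of all genes were lower and 5.89% higher. The control and cKO libraries overlapped in each of the 10 genes, while they did not overlap in 6.24% of all genes. The log2 fold changes of 9 of the 10 lay below 0, against 48% of all genes, with a median of -0.14 against 0.01 over all genes. Rescaling FPKM to equal sums per library (TPM) moved all genes upward: 6 of the 10 then lay below 0, against 32.7% of all genes, and the medians were -0.060 for the 10 and 0.087 for all genes.

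Among the kinases, *Atr* had 25.1, 23.3, 29.2 and 23.5 FPKM in the control libraries and 24.2, 18.9, 19.2 and 17.7 FPKM in the cKO libraries. Of the cKO libraries 3 lay below the lowest control library and the other, cKO replicate 1, lay within the control range. The log2 fold change of *Atr* was -0.34 (standard error 0.12, 95% interval -0.62 to -0.07, unadjusted p = 0.0203, limma adjusted p = 0.368), a level 0.789 times that of the control. The unadjusted limma p moved in both directions with the libraries kept and the settings. It rose to 0.0617 without control replicate 3, 0.0554 without cKO replicate 2 and 0.0530 without cKO replicate 3. It also rose to 0.0646 without cKO replicate 4 and 0.0697 with TPM. It fell to 0.00378 without cKO replicate 1 and to 0.00262 with array weights. Without control replicate 1, 2 or 4 it was 0.0211 to 0.0237. The log2 fold change stayed between -0.44 and -0.26 in these and all other fits tried. *Atr* shares 726 exonic bases with the antisense gene *1700065D16Rik* and 462 with *Gm16794*, or 3.07% and 1.96% of its length. Both antisense genes were at or below a mean of 1.24 FPKM, and whether the counting used strand is not given in the sources used here.

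*Atm*, the kinase of double-strand breaks, had 12.4, 10.3, 10.95 and 12.5 FPKM in the control libraries and 9.45, 10.7, 10.2 and 11.6 in the cKO libraries. The ranges overlapped, with cKO replicate 1 the lowest of all. Its log2 fold change was -0.13 (standard error 0.11, 95% interval -0.37 to 0.10, limma adjusted p = 0.711). The ratio of *Atr* to *Atm* FPKM was 1.88 to 2.67 in the control and 1.53 to 2.56 in the cKO libraries, which overlap.

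*Chek1*, the effector kinase that ATR activates, had 10.7 FPKM in control replicate 1 and 6.81, 6.45 and 6.69 in the other control libraries, and 5.94, 6.42, 6.41 and 6.45 in the cKO libraries. A single control library therefore sat above all others. Its log2 fold change was -0.25 (standard error 0.16, 95% interval -0.60 to 0.11, limma adjusted p = 0.630) with that library and -0.075 (standard error 0.086) without it. *Chek2*, the effector kinase downstream of ATM, had 4.70, 4.43, 4.39 and 4.58 FPKM in the control and 3.85, 4.74, 4.39 and 4.67 in the cKO libraries. Apart from cKO replicate 1, the 8 mice were within a narrow band, and the difference was -0.040 on the log2 scale (standard error 0.11, 95% interval -0.28 to 0.20, limma adjusted p = 0.925). With 185 to 241 fragments per library it was the least covered member. Its residual SD, 0.10 on the log2 scale, was close to the 0.11 that counting alone gives at the fewest fragments.

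*Hus1* encodes a subunit of the 9-1-1 clamp, which is loaded onto DNA and brings TOPBP1 to ATR. It had 4.51, 4.55, 4.999 and 4.82 FPKM in the control and 4.55, 4.77, 4.66 and 4.46 in the cKO libraries. This was the steadiest member: its residual SD of 0.06 on the log2 scale stood at percentile 0.717 of all genes tested and below the 0.07 expected from counting 381 fragments. Its groups differed by -0.032 on the log2 scale (standard error 0.10, 95% interval -0.24 to 0.18, limma adjusted p = 0.932). *Topbp1*, the activator of ATR, had 26.1, 27.7, 29.5 and 27.6 FPKM in the control and 32.1, 24.6, 26.4 and 25.9 in the cKO libraries. Here the cKO group held both the highest and the lowest mouse. The mean difference was -0.031 on the log2 scale (standard error 0.11, 95% interval -0.27 to 0.21, limma adjusted p = 0.941).

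**Figure D2:**
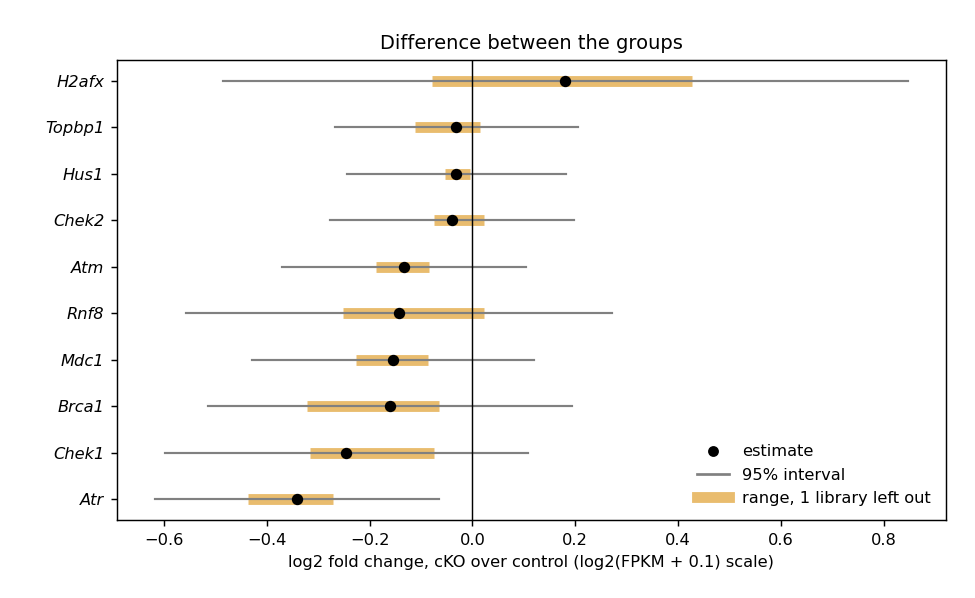
Log2 fold change of each of the 10 genes, cKO over control (point), with its 95% interval from limma (grey line) and the range of estimates when each library is left out in turn (orange band). The interval of *Atr*, -0.62 to -0.07, is the only one that does not include 0, and that of *H2afx* is the widest, -0.49 to 0.85.

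Among the mediators, *H2afx*, the histone whose phosphorylated form marks the sex body, had 237, 160, 129 and 82.7 FPKM in the control and 222, 139, 170 and 128 in the cKO libraries. The highest control mouse was 2.86-fold above the lowest, and every cKO library fell between them. Its residual SD of 0.51 on the log2 scale was at percentile 95.1 of all genes tested, where counting alone would give 0.03. On the log2 scale the groups differed by 0.18 (standard error 0.30, 95% interval -0.49 to 0.85, limma adjusted p = 0.868). Leaving out control replicate 1 gave 0.43, and leaving out control replicate 4 gave -0.078, so neither direction nor size was determined here.

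*Mdc1*, which binds γH2AX and spreads the signal through the loops, had 85.5, 91.1, 105.0 and 89.9 FPKM in the control and 96.8, 80.7, 84.8 and 72.4 in the cKO libraries. Of the cKO libraries 3 lay below every control library and 1 lay above 3 of them. The estimated log2 fold change was -0.15 (standard error 0.12, 95% interval -0.43 to 0.12, limma adjusted p = 0.712). *Rnf8*, the ubiquitin ligase recruited by MDC1, had 10.3, 6.61, 7.03 and 5.86 FPKM in the control and 8.29, 6.52, 6.38 and 5.45 in the cKO libraries. Replicate 1 of either group was the highest of its group. For *Rnf8* the log2 fold change was -0.14 (standard error 0.19, 95% interval -0.56 to 0.27, limma adjusted p = 0.831), and 0.023 without control replicate 1. *Rnf8* shares 1542 exonic bases in GENCODE vM21 with *Gm28043*, a protein-coding gene on the same strand at a mean of 0.894 FPKM in the control libraries, so its count is less certain than the others.

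*Brca1*, which acts on the XY axes to bring ATR there, had 9.33, 7.57, 5.44 and 8.80 FPKM in the control and 6.47, 6.80, 7.13 and 6.85 in the cKO libraries. The 4 cKO mice lay close together inside the control range. The difference was -0.16 on the log2 scale (standard error 0.16, 95% interval -0.52 to 0.19, limma adjusted p = 0.772). Without control replicate 3, the lowest control library, it was -0.32 with an unadjusted p of 0.0171 and a limma adjusted p of 0.573.

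The members did not vary together as 1 group across the 8 mice. *Atr* and *Mdc1* were both highest in control replicate 3 and lowest in cKO replicates 4, 2 and 3, and their log2 levels, each centred on its mean, differed by a root mean square of 0.12 over the 8 libraries. *Topbp1* and *Mdc1* were closer still, at 0.10, and *Atm* and *Chek2* closest of all pairs, at 0.09. *H2afx*, *Rnf8*, *Chek1* and *Brca1* were all highest in control replicate 1, the library that stood apart. *H2afx* and *Rnf8* were also both second highest in cKO replicate 1, where *Chek1* was lowest. The profiles of *H2afx* and *Rnf8* differed by 0.29, and those of *Rnf8* and *Chek1* by 0.21. This measure grows with each gene's own spread over the libraries. That spread was 0.45 for *H2afx*, 0.27 for *Rnf8*, 0.24 for *Chek1* and 0.09 for *Chek2*. The measure therefore does not rank pairs by shared pattern. The ratio of *H2afx* to *Mdc1* FPKM ran from 0.920 to 2.77 among the control mice and from 1.72 to 2.29 among the cKO mice.

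**Figure D3:**
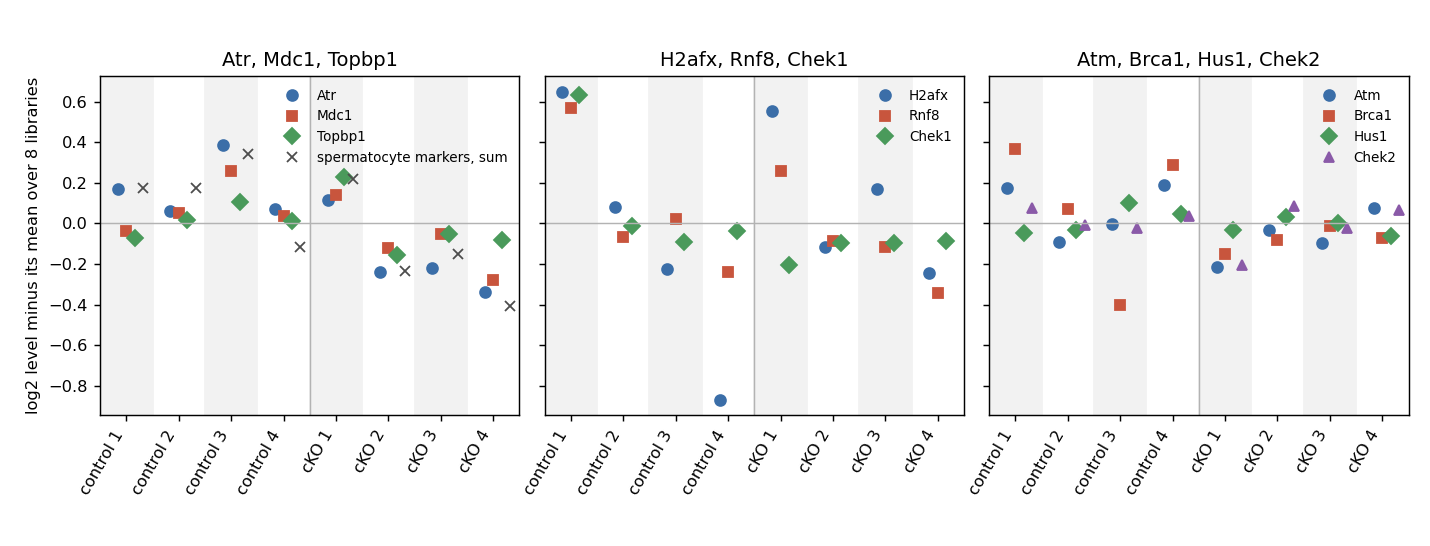
Log2(FPKM + 0.1) of the 10 genes in each library minus the gene's mean over the 8 libraries, in 3 panels, with the log2 summed FPKM of 7 spermatocyte markers (crosses) in the left panel. *Atr*, *Mdc1* and the sum of the markers are highest in control replicate 3 and lowest in cKO replicate 4. *H2afx*, *Rnf8*, *Chek1* and *Brca1* are highest in control replicate 1.

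At its ends, the library order of *Atr* and *Mdc1* was also that of the sum of the spermatocyte markers. The sum was 1003, 1004, 1126 and 820 FPKM in the control and 1036, 757, 802 and 672 FPKM in the cKO libraries. It was highest in control replicate 3 and lowest in cKO replicate 4. Of the single markers *Sycp2*, *Piwil1* and *Mybl1* were highest in control replicate 3. *Sycp1* was highest in cKO replicate 1, *Sycp3* in control replicate 1, *Hspa2* in control replicate 2 and *Ovol1* in control replicate 4. All but *Ovol1* were lowest in cKO replicate 4. All 7 markers had log2 fold changes below 0, with a median of -0.29 (-0.21 with TPM, where all 7 were again below 0), and none was called. Markers of some somatic cells lay on the other side: all 4 macrophage markers had log2 fold changes above 0, with summed FPKM of 9.94 to 13.8 in the control and 13.1 to 16.5 in the cKO libraries. The same held for all 4 endothelial markers (4.996 to 12.2 against 11.2 to 14.3 FPKM). Summed peritubular markers were 43.9 to 74.1 and 73.0 to 103 FPKM, and Leydig cell markers 15.6 to 33.2 and 25.2 to 41.0 FPKM. The peritubular sum was mostly *Acta2* (means 49.5 and 72.8 FPKM). The means of *Myh11* and *Des* were also higher in the cKO group, and that of *Tagln* was lower (0.855 and 0.712). Among the Leydig markers *Insl3* was nearly equal (0.576 and 0.572) and the others were higher. *Tagln*, *Insl3*, *Cyp17a1* and *Cyp11a1* did not pass the filter. Of the 6 Sertoli cell markers 5 had log2 fold changes above 0 (6 with TPM). Their summed FPKM was 390, 303, 271 and 281 in the control and 299, 324, 332 and 362 in the cKO libraries. Control replicate 1, the library that stood apart, had the highest sum. *Cldn11* (248 FPKM), *Amh* (53.5) and *Rhox5* (11.1) were highest there. *Sox9* (22.6) and *Wt1* (28.1) were there the lowest of the control libraries, and *Gata1* (26.4) lay inside the control range. Spermatogonial markers summed to 181 to 230 and 219 to 230 FPKM, but within that list *Stra8*, the RA-induced gene of meiotic entry, had 5.92, 4.53, 19.8 and 12.9 FPKM in the control and 2.03, 3.93, 2.93 and 4.70 in the cKO libraries (log2 fold change -1.46, standard error 0.44, unadjusted p = 0.00735, limma adjusted p = 0.280). *Stra8* is named here after its values were seen. No marker of these lists was at 0 in every library. In whole testis fewer spermatocytes and less RNA per spermatocyte cannot be told apart, and the part of cell composition in the values of *Atr* and *Mdc1* was not tested.

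The genes that act with the 10 members were taken from 5 lists of 58 genes, of which 57 were in the table and 55 passed the filter. *Fancb* and *Trp63* were below 1 FPKM, and no row was found for *Bend2*. None of the 55 was called, 5 had an unadjusted p below 0.05 (9.09%, against the 10.9% of all genes), 2 of them higher and 3 lower in the cKO libraries, and the groups did not overlap in 5, or 9.09%, against 6.24% of all genes. The median log2 fold change was -0.07, with 34 of the 55 below 0 against 48% of all genes. With TPM 27 of the 55 lay below 0, against 32.7% of all genes, and the median was 0.0078 against 0.087 over all genes.

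In the list of ATR partners, which holds the 9-1-1 clamp, its loader and RPA, none of 14 genes had an unadjusted p below 0.05 and the median log2 fold change was -0.10 (-0.024 with TPM). *Rpa2* and *Tipin* had the highest levels. *Rpa2*, a subunit of the complex that coats single-stranded DNA, was at 44.5 ± 13.6 FPKM in the control and 42.6 ± 4.75 in the cKO libraries (SD, n = 4 each; log2 fold change -0.022, standard error 0.19, limma adjusted p = 0.975). *Tipin*, a fork protection factor, was at 29.1 ± 7.59 and 26.3 ± 2.92 FPKM (log2 fold change -0.12, standard error 0.17, limma adjusted p = 0.844). Both were highest in control replicate 1. In the list of ATM partners, with the MRN complex that senses break ends, none of 8 genes had an unadjusted p below 0.05 and the median was -0.040 (0.038 with TPM). *Rif1*, which limits resection of break ends, led it at 39.8 ± 5.29 and 33.5 ± 1.77 FPKM (log2 fold change -0.24, standard error 0.11, unadjusted p = 0.0630, limma adjusted p = 0.495). *Kat5*, the acetyltransferase that activates ATM, followed at 25.96 ± 3.62 and 25.995 ± 0.581 FPKM.

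In the ubiquitin branch and the BRCA1 complexes 1 of 14 genes had an unadjusted p below 0.05, and the median was -0.057 (0.021 with TPM). This was *Rnf168*, the ligase that extends the chains begun by RNF8, with 15.2, 9.43, 10.04 and 10.8 FPKM in the control and 9.11, 8.97, 7.51 and 8.45 in the cKO libraries. Every cKO library lay below every control library, and the log2 fold change was -0.39 (standard error 0.15, unadjusted p = 0.0262, limma adjusted p = 0.399). *Babam1* and *Herc2*, the most abundant of the list, had log2 fold changes of -0.10 and -0.07 with limma adjusted p of 0.871 and 0.830.

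Of the sex body and axis factors 8 of 10 were tested, and 3 had an unadjusted p below 0.05, with a median log2 fold change of -0.11 (-0.035 with TPM). *Scml2*, an X-linked Polycomb protein of the germline, was the higher one, with 22.3, 18.6, 24.2 and 20.7 FPKM in the control and 31.8, 27.8, 34.7 and 29.9 in the cKO libraries, which do not overlap (log2 fold change 0.54, standard error 0.11, limma adjusted p = 0.150). *Fanci* and *Slx4*, both of the Fanconi anaemia pathway of crosslink repair, were lower, by log2 fold changes of -0.29 and -0.28 (standard errors 0.10 and 0.11, limma adjusted p = 0.363 and 0.391). *Hormad1*, the axis protein through which ATR is recruited, was the most abundant gene of the 5 lists at 124 ± 14.5 and 128 ± 26.2 FPKM (SD, n = 4 each; log2 fold change 0.029, standard error 0.16, limma adjusted p = 0.962). *Setdb1*, the histone methyltransferase that acts downstream of this signal on the sex chromosomes, was at 32.6 ± 1.86 and 28.5 ± 0.935 FPKM without overlap (log2 fold change -0.19, standard error 0.09, unadjusted p = 0.0537, limma adjusted p = 0.472).

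Of the checkpoint outputs 11 of 12 were tested, with a median log2 fold change of 0.030 (0.11 with TPM). *Trp53*, which encodes p53, was the only one with an unadjusted p below 0.05. It had 12.3, 19.2, 16.97 and 16.5 FPKM in the control and 19.4, 20.2, 20.5 and 21.5 in the cKO libraries, without overlap (log2 fold change 0.35, standard error 0.13, unadjusted p = 0.0267, limma adjusted p = 0.401). Its lowest value was that of control replicate 1. *Mdm2*, the ligase that degrades p53 and a p53 target, was at 34.1 ± 4.63 and 29.7 ± 2.19 FPKM (SD, n = 4 each; log2 fold change -0.19, standard error 0.12, limma adjusted p = 0.604). *Wee1*, the kinase that holds CDK1 inactive, was at 26.9 ± 8.36 and 26.7 ± 2.89 FPKM (log2 fold change 0.030, standard error 0.19, limma adjusted p = 0.968).

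**Figure D4:**
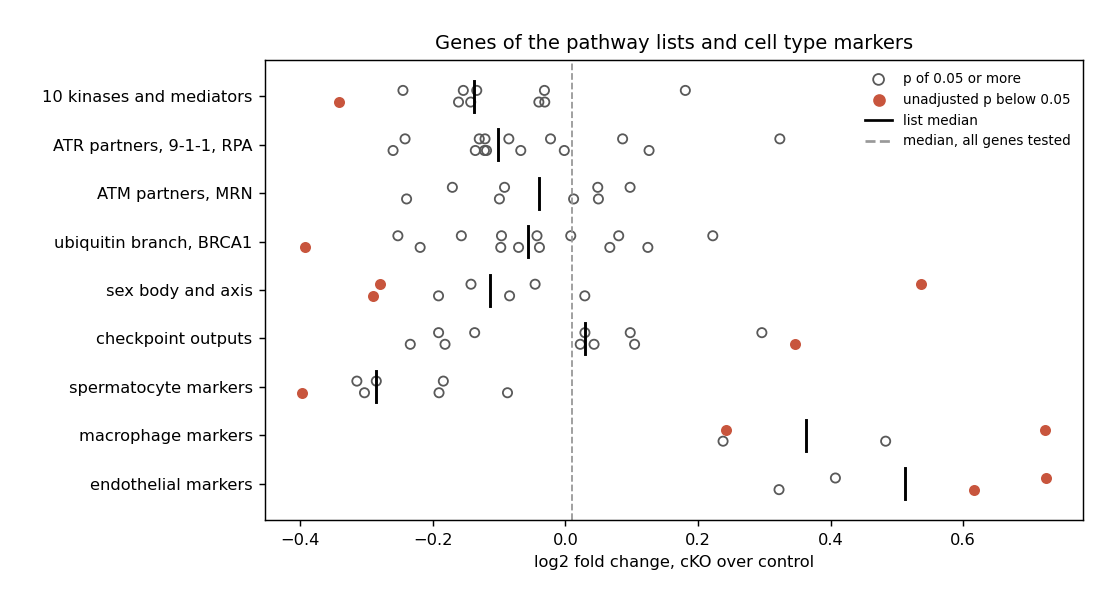
Log2 fold change, cKO over control, of each tested gene of the 10 kinases and mediators, the 5 pathway lists and 3 marker lists (filled red, unadjusted p below 0.05), with list medians (black bars) and the median of all genes tested (dashed line). The medians of the pathway lists lie between -0.11 and 0.03 (-0.035 and 0.11 with TPM), that of the spermatocyte markers at -0.29, and macrophage and endothelial markers lie wholly above 0.

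The tested gene with the most similar profile over the 8 libraries was looked up for the members as the smallest root mean square difference between centred log2 levels. *Mdc1* was nearest to *Zfp654* (0.0332), *Chek2* to *Narf* (0.0383), *Topbp1* to *Ints6* (0.0389) and *Atr* to *Cep126* (0.0405). *Atm* was nearest to *Gnpda2* (0.0417), *Chek1* to *Rufy3* (0.0427), *Rnf8* to *Tmem38b* (0.0503) and *Brca1* to *Acat2* (0.0603). For *H2afx*, the most variable member, the nearest gene, *Coa3*, still differed by 0.134. No member was the nearest gene of another.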

How the data were processed

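RNA was sequenced from whole testes as paired ends (labels: column kit for RNA, SMARTER mRNA-seq libraries; the paper names Trizol, and gives tamoxifen slightly earlier than the labels). The authors deposited FPKM values, made by the sequencing company's software, for 54532 genes, repeated in 1 file for each library. The aligner, counter and use of strand are not given in the sources used here. The submitters' processing notes name GRCm38 (mm10). FPKM multiplied by gene length gave whole fragments in 100% of the values checked (tolerance 0.02). Only values above 0 of low fragment number were checked, and several members, among them *Atr* and *Mdc1*, lay above that range.

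Genes that code for protein and whose mean FPKM exceeded 1 in each of the groups were tested with limma 3.58.1 in R 4.3.3 (lmFit, eBayes with trend) on log2(FPKM + 0.1), 4 libraries against 4, after checking the script on simulated data. Fold changes on this scale understate those of low genes. p-values are Benjamini-Hochberg adjusted over the 12141 genes tested. An adjusted p belongs to this limma fit unless another fit is named.

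The members and lists were chosen with earlier results of these data known. Named genes are the 10 members, from each pathway list the 2 with the highest mean FPKM and up to 3 with the smallest unadjusted p below 0.05, the nearest profile of each member (that of *Hus1* is not reported here), and *Spdya*. Replicates of a group differed by more than sampling noise. The squared difference over its counting variance, averaged over genes, was at least 4.81 in every pair. This is a mean over genes and does not hold for each gene. Promoters are from RefSeq. Alternatives were other pseudocounts, filters, scalings, voom on the recovered fragments, array weights, no trend in eBayes, a replicate block, and each library left out. The principal transcript length was added after seeing the data.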

Additional observations from a re-analysis of the deposited data

Results flagged for a closer look

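Of 20 groups of 4 libraries (10 genes, 2 groups each), 2 held a library far from the other 3 by Dixon's criterion, where chance flags about 1 in 20. Both were of *Chek1*. Control replicate 1 had 10.7 FPKM against 6.45 to 6.81 FPKM in the other control libraries, and cKO replicate 1 had 5.94 FPKM against 6.41 to 6.45 FPKM in the other cKO libraries.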

How the results depend on the processing

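None of the 10 genes was called in any of the fits. The number at an unadjusted p below 0.05 was 0 with TPM and 0 to 1 with 1 library left out: 0 without cKO replicate 2, 3 or 4, and 1 without control replicate 3, where it was *Brca1* and not *Atr*. Over the 55 pathway genes it was 3 with TPM, where 10.5% of all genes had such a p, and 8 with array weights (20.9% of all genes). With 1 library left out it was 1 to 8, while the share of all genes ran from 5.66% to 15.6%. It was 2 without cKO replicate 2 (7.58% of all genes) and 8 without control replicate 2 (11.1%). It was 1 without cKO replicate 3 (6.61%) or 4 (5.66%). The log2 fold changes of *Topbp1* (0.047), *Hus1* (0.045) and *Chek2* (0.037) turned above 0 with TPM, which moved the median of all genes by 0.077, and that of *Chek2* (0.011) also with array weights. With 1 library left out the range spanned 0 for *H2afx* (-0.078 to 0.43), *Rnf8* (-0.25 to 0.023), *Topbp1* (-0.11 to 0.015) and *Chek2* (-0.075 to 0.022). Of the 10 genes' alternative log2 fold changes, 180 kept direction and side of the threshold and 8 turned direction. The limma adjusted p of *Atr* was 0.0588 with array weights and up to 0.521 otherwise, and 0.208 to 0.906 with 1 library left out. *Hus1* and *Chek2* were not tested with a mean FPKM above 5. The cause of these changes was not tested. Same-numbered mice deviated together at correlations of 0.0757 to 0.406, above 0.1 for all but replicate 3. The numbers were not taken as paired in the main fit. With a replicate block the counts at that unadjusted p were 1 of the 10 members and 7 of the 55 pathway genes, against 14.6% of all genes. None of these members or pathway genes was then called. The block lowered the standard error of *H2afx* from 0.30 to 0.16 and that of *Rnf8* from 0.19 to 0.10. Those of the other members moved less, some up and some down. Counting error came near the residual spread only for *Chek2* and *Hus1*. For the other 8 members the spread between mice was larger than counting error. The intervals show how precisely each difference was estimated and are not limits of detection. A call also required the adjusted p and the size of change stated above, which *Atr* did not reach.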
